A study of Mus musculus with 8 samples.

Results

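Follicular cells of the mouse ovary that received an siRNA pool against Foxl2 and then 17β-estradiol (E2) were compared with cells that received a non-targeting siRNA pool and the vehicle of E2. The first group is called the combined treatment and the second the control. This contrast runs along the diagonal of a 2 × 2 design, so both factors change at once. It holds 4 of the 8 arrays of the series, which are the 2 arrays titled as FOXL2 siRNA with E2 treatment and the 2 titled as control siRNA with control treatment, matched by the replicate number in the titles. All groups came from primary cells of preantral and small antral follicles of Swiss females aged 8 weeks, with 5 mice pooled per replicate. The cells were in culture for 9 days in all, in medium with hormone-depleted serum, and received 12 pmol of siRNA for 24 h and then 100 nM E2 or vehicle for 10 h. A non-targeting pool controls for transfection of siRNA, but not for effects of the Foxl2 pool's sequences on other transcripts. A knockdown is partial and short, and cells in culture can drift from the granulosa type. Of 24235 genes on the array, 15645 had a median scaled signal of at least 10 over the 8 arrays and were tested, and 8590 fell below that level. Among the latter, 56 genes were well above background on both arrays of 1 compared group and on neither of the other, and were left untested. Scaled signal is the background-subtracted spot intensity after each array was set to the same 75th percentile, and differences are on the log2 scale, FOXL2 siRNA with E2 minus control siRNA with vehicle.

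FOXL2 is a forkhead transcription factor of granulosa cells, the somatic cells that surround the oocyte, and it is known for keeping them from taking on features of Sertoli cells, their counterpart in the testis. E2 acts through the nuclear receptors ESR1 and ESR2, which bind DNA as dimers once they hold the hormone. ESR2 is the main estrogen receptor of granulosa cells, and these cells also make E2 from androgens with the enzyme aromatase, encoded by Cyp19a1.

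The targeted gene was examined first. Foxl2 had gene-level signals of 11296 and 8286 in the control and 8945 and 8002 after the combined treatment, with a log2 change of -0.19 ± 0.10 (SE), adjusted p = 0.232, so that the gene-level value did not pass the test. It is the mean of a bright and a dim probe. The bright probe read 22464 and 16475 in the control and 17824 and 15959 after the combined treatment, a difference of -0.19 (adjusted p = 0.302). The dim probe read 128 and 97.1 in the control against 65.8 and 45.6, with no overlap and a difference of -1.03 (adjusted p = 0.00394, or 0.108 without pairing by replicate). Between siRNAs within a treatment, the bright probe differed by 0.17 with vehicle and 0.19 with E2, upwards with FOXL2 siRNA (limma adjusted p = 0.346 and 0.312). For the dim probe these differences were -1.15 and -0.79 (adjusted p = 0.00167 and 0.0172, or 0.0647 and 0.238 without pairing). The targeted gene thus checks the labels only in part. The direction within the control siRNA arrays also runs against the study's text: it describes Hsd11b2, Tacc1, Angpt2 and Cbs as raised by E2, whereas the arrays labelled control siRNA with E2 lay below those labelled control siRNA with vehicle, with log2 differences of -2.33, -1.02, -1.25 and -2.11. If the labels of those 2 groups were exchanged, the 4 arrays compared here would be FOXL2 siRNA and control siRNA cells that both had E2, and each value below would stand for the knockdown in the presence of E2. The labels give no way to settle this, and the labels as deposited are used throughout.

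The 8 arrays lay on 1 slide, each group at the same position in both columns of the slide, so that position and group cannot be told apart, and the share of probes that the scanner software marked well above background ran from 51.4 to 55.7%. Replicates of a group correlated between 0.9893 and 0.9921 over the genes tested, and the correlation is across genes, which are not replicates. Granulosa genes such as Inha, a subunit of inhibin (40843 and 40294 in the control, 41326 and 40074 after the combined treatment), and Nr5a1, a regulator of steroid enzymes (11072 and 11565, then 9403 and 9839), were well above background on every array compared. Of the 25 granulosa genes listed, 2 were well above background on none of the 4 arrays, Fshr and Lhcgr. Of 12 oocyte markers, 9 were well above background on none of the 4 arrays, and so were 7 of 10 endothelial markers, 3 of 10 macrophage markers and 3 of 9 theca and Leydig markers. Of 12 smooth muscle and fibroblast markers it was 2. The other markers of each list were well above background on at least 1 of the 4 arrays. Smooth muscle and fibroblast markers had a summed signal of 23323 and 37170 in the control and 29078 and 38903 after the combined treatment. The summed signal of the macrophage markers was 2255 and 1968 in the control and 2216 and 1806 after the combined treatment, and that of the oocyte markers was 160.2 and 194 against 176 and 212. Of the 13 oocyte, endothelial and macrophage markers tested, 0 passed the limma test and 0 had an unadjusted p under 0.05 (0 without the block defined below), while among the theca markers Cyp17a1 rose by 0.73 and Hsd3b6 fell by 0.87. In whole-culture RNA, fewer cells of a type and less RNA per cell cannot be told apart.

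The combined treatment changed about as many genes upwards as downwards. In a limma fit over all 8 arrays with the replicate number as a block, 1256 genes were higher (8.03% of those tested) and 1263 were lower (8.07%) at a Benjamini-Hochberg adjusted p under 0.05. Changes over 1 on the log2 scale were seen for 290 of the former and 280 of the latter. The median over all genes was -0.03. Without the block, 395 genes were higher (2.52%) and 363 lower (2.32%), and all of them were also called with the block. With 2 arrays per group, the number of arrays limits the precision. The arrays of the compared groups did not overlap for 7116 of the 15645 genes tested, so that a lack of overlap is common. List counts below are to be read against the shares of all genes, 8.03% higher and 8.07% lower. "Rose" and "fell" are used for genes called with the block. Genes named beside a count of 5 or fewer that the naming rule does not cover were chosen after their values were seen.

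**Figure D1:**
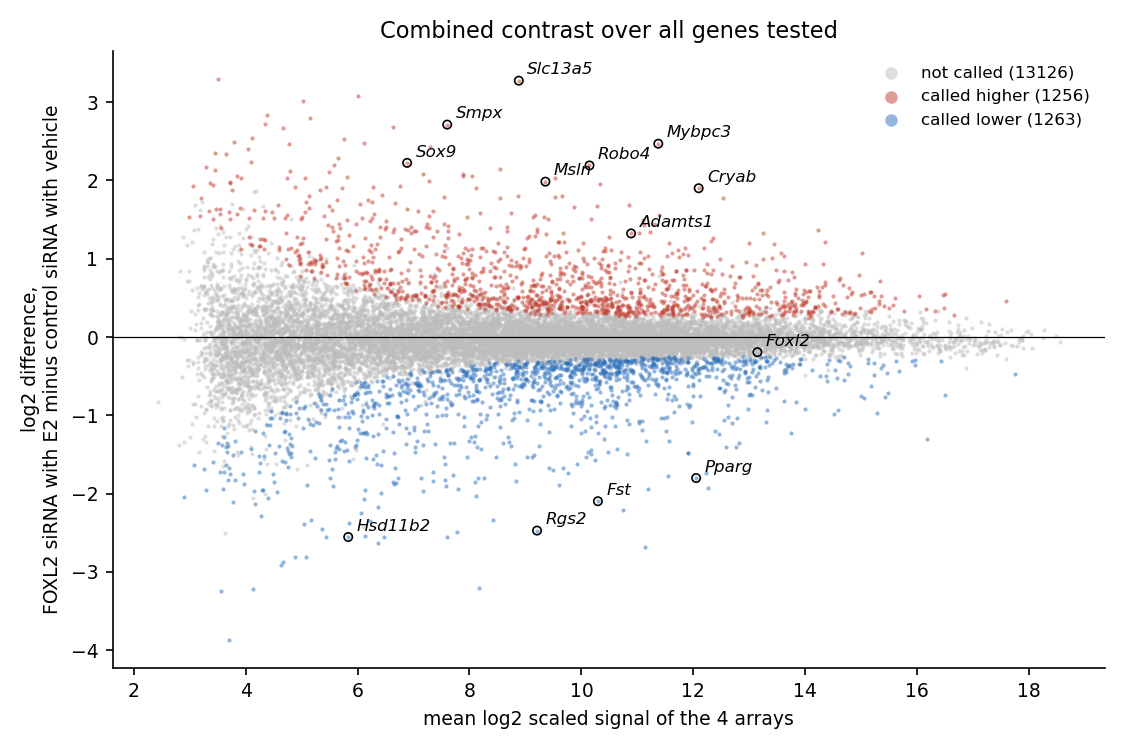
Log2 difference between FOXL2 siRNA with E2 and control siRNA with vehicle (vertical axis) against the mean log2 scaled signal of the 4 arrays (horizontal axis), with 1 point per gene for the 15645 genes tested. Coloured points passed the test, 1256 upwards and 1263 downwards, and the circled genes are described in the text; Foxl2 itself lies near 0.

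The largest falls among genes measured on all 4 arrays included signalling regulators, surface and matrix genes and enzymes. Fst (follistatin, which binds and neutralises activin) was 2622 and 2575 in the control and 765 and 482 after the combined treatment, with a log2 change of -2.10 ± 0.14 (SE), adjusted p = 2.66e-06. Rgs2 (a regulator that shortens G-protein signals) was 1265 and 1532 in the control and 287 and 219.5 after the combined treatment, with a log2 change of -2.47 ± 0.17 (SE), adjusted p = 2.71e-06, and its relative Rgs4 fell from 165 and 176 to 47.2 and 38.7 (-1.99, adjusted p = 5.68e-06). Neither gene overlapped between the groups.

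Surface and matrix genes were among the largest falls too. Itga2 (the integrin α2 subunit, part of a collagen receptor) was 149 and 315 in the control and 34.2 and 39.5 after the combined treatment, 5.88-fold lower (-2.56 ± 0.22 SE, adjusted p = 1.35e-05). Col10a1, a short-chain collagen, went from 129 and 165 to 38.9 and 24.2 (-2.25), Krt23, a keratin, from 171 and 168 to 30.2 and 28.3 (-2.54), and Trpa1, a cation channel, from 122 and 77.1 to 17.2 and 18.2 (-2.45). Asgr1, a subunit of the asialoglycoprotein receptor, fell by 2.03. Lzts1 fell by 2.63 and Spin2c by 2.21, and Tmsb15l, a thymosin of an X-linked cluster of near-identical copies whose probes may not separate them, by 1.96. Adjusted p-values of these genes ran from 1.44e-07 to 0.00014.

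Enzymes completed the group. Hsd11b2 (the enzyme that inactivates corticosterone) was 149 and 128 in the control and 32.8 and 16.9 after the combined treatment, 5.87-fold lower (-2.55 ± 0.46 SE, adjusted p = 0.0022). Cdo1 (cysteine dioxygenase, which starts the breakdown of cysteine) was 457 and 595 in the control and 81.9 and 105 after the combined treatment, with a log2 change of -2.49 ± 0.17 (SE), adjusted p = 2.95e-06. The controls of Hsd11b2 lay close together and the treated arrays differed more from each other, and the groups overlapped for neither gene.

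**Figure D2:**
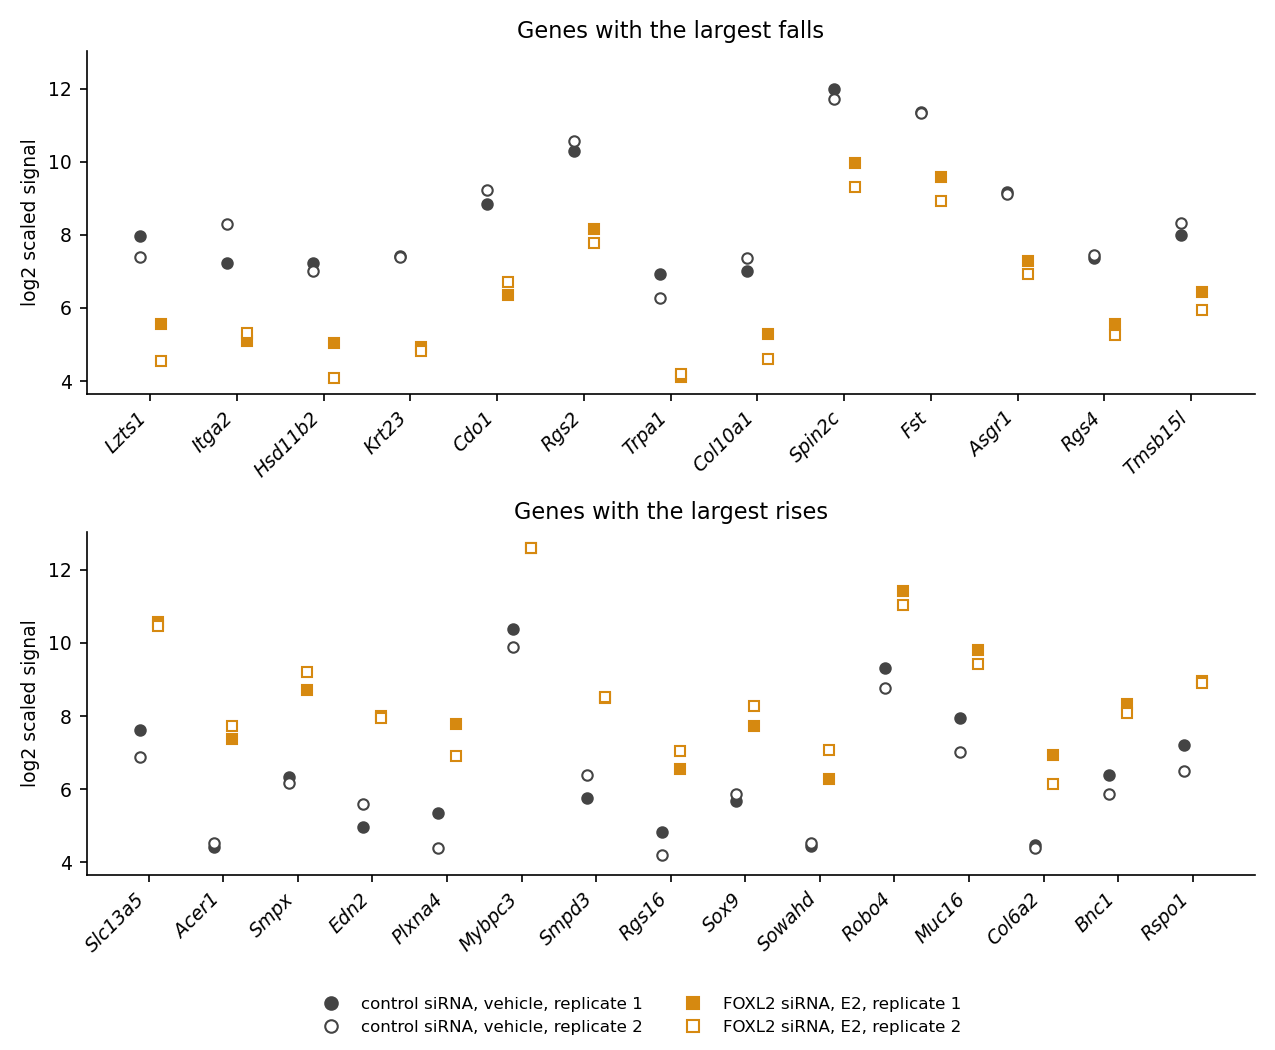
Log2 scaled signal (vertical axis) of 13 of the 15 genes with the largest falls (upper panel) and the 15 with the largest rises (lower panel) on each of the 4 arrays; circles are control siRNA with vehicle, squares FOXL2 siRNA with E2, filled symbols replicate 1 and open symbols replicate 2. For each gene both squares lie on the same side of both circles, which the choice of genes required, with changes from -2.63 for Lzts1 to 3.27 for Slc13a5.

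Among the rises of genes measured on all 4 arrays, that of Slc13a5, a plasma membrane citrate carrier, was the largest. Slc13a5 was 195 and 118 in the control and 1526 and 1411 after the combined treatment, 9.68-fold higher with a log2 change of 3.27 ± 0.13 (SE), adjusted p = 1.44e-07. Acer1 (alkaline ceramidase 1, which releases sphingosine from ceramide) was 21.5 and 23.1 in the control and 166 and 212 after the combined treatment, with a log2 change of 3.08 ± 0.16 (SE), adjusted p = 6.19e-07. Smpd3, a neutral sphingomyelinase that makes ceramide, rose from 54.6 and 83.6 to 359.7 and 368 (2.43 ± 0.15 SE, adjusted p = 1.84e-06). The treated arrays of these 3 genes lay close together and well above both controls.

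The other large rises were of genes with varied functions. Mybpc3 (cardiac myosin-binding protein C) was 1335 and 951 in the control and 6252 and 6234 after the combined treatment, with a log2 change of 2.47 ± 0.11 (SE), adjusted p = 1.44e-07. Smpx, a small muscle protein, went from 80.5 and 71.4 to 422 and 587 (2.71). Edn2, the vasoconstrictor peptide endothelin 2, which granulosa cells are known to make around ovulation, went from 31.5 and 48.7 to 257 and 247 (2.69). Rgs16, of the same family as Rgs2 and Rgs4 but opposite in direction, went from 28.5 and 18.2 to 94.2 and 133 (2.29). The guidance receptors Plxna4 and Robo4 rose by 2.48 and 2.19, and Rspo1, an amplifier of WNT signals needed for ovary development, by 2.08. Sowahd rose by 2.20, Col6a2, a chain of collagen VI, by 2.11, and the zinc finger gene Bnc1 by 2.08. Adjusted p-values of these genes ran from 1.44e-07 to 0.000143.

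Some genes were measured in 1 compared group only, and their folds are lower bounds. These bounds allow for background only and do not cover the spread between arrays. The bound was set on each dim array against the gene's own signal or the lowest signal that counted as well above background, whichever was higher, and for each gene named here its own signal was the higher, so that the bound is also the fitted fold. Slitrk6 was 46.2 and 28.5 in the control, well above background, and was not well above it on either treated array (5.29 and 2.79), at least 9.45-fold lower. Prdm6 was at least 7.55-fold lower, Adam2 7.32-fold, Ppfia2 4.31-fold and Slc6a15 3.92-fold. In the other direction, S1pr5, a receptor for the lipid sphingosine 1-phosphate, was 4.48 and 2.91 in the control, not well above background, and 28.1 and 44.9 after the combined treatment, at least 9.84-fold higher. Asb12 was at least 5.83-fold higher, Gprin3 5.27-fold, Gata1, a GATA factor also made by Sertoli cells, 5.04-fold and Col17a1 4.09-fold. Adjusted p-values of these genes ran from 2.41e-05 to 0.00815. With an array left out, the log2 change of S1pr5 ranged from 2.70 without control replicate 2 to 3.90 and that of Gprin3 from 1.62, again without control replicate 2 and not called there (adjusted p = 0.0526), to 3.18. Ppfia2 was not called without control replicate 1 or 2 or combined-treatment replicate 2 (adjusted p = 0.052, 0.137 and 0.056).

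The changes were then set against genes that the study lists as FOXL2 targets from a separate set of arrays, on another platform and in other samples. The copies of these lists used here hold 214 and 132 genes and may not be complete. Of 211 tested genes listed as activated by FOXL2, 184 fell and 1 rose, with a median change of -1.11. The one that rose was Slc51a (0.93, adjusted p = 0.0207), a subunit of a bile acid carrier. Without the block 115 fell. Examples were Ereg, an EGF receptor ligand (314 and 698, then 53.0 and 120.4, -2.55), Elavl2, an RNA-binding protein (505 and 542, then 155 and 135, -1.85), and Spin2c, given above. Ereg rested on the pairing, with an adjusted p of 1.05e-06 with the block and 0.0501 without it. Cyp19a1, which makes E2, was 25.0 and 22.9 in the control and 13.7 and 12.3 after the combined treatment; the change of -0.89 ± 0.35 (SE) did not pass the test (adjusted p = 0.113), and the gene was well above background on 1 of the 2 treated arrays. Among the FOXL2-activated genes, rises ranged from 0 to 1 (0 without control replicate 2 or combined-treatment replicate 2) with an array left out. Slc51a was not called without the block (adjusted p = 0.0813).

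Of 130 tested genes listed as repressed by FOXL2, 119 rose and 0 fell (0 lower at an unadjusted p under 0.05, 0 without the block), with a median of 1.26, and 74 rose without the block. Robo4 (642 and 437, then 2760 and 2120), Mybpc3 and Slc13a5 were among those with the smallest adjusted p. Cryab (a small heat shock protein) was 1754 and 2921 in the control and 6433 and 11110 after the combined treatment, with a log2 change of 1.90 ± 0.08 (SE), adjusted p = 1.44e-07, 0.0501 without the block; the rise was alike within each replicate, while replicate 2 was higher in both groups. Against these shares, 8.03% of all genes rose and 8.07% fell. The lists came from knockdown of the same gene in the same kind of cells, so their direction here is a comparison between experiments of 1 study. On the FOXL2-repressed list, falls ranged from 0 to 1 (1 without control replicate 1) with an array left out.

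**Figure D3:**
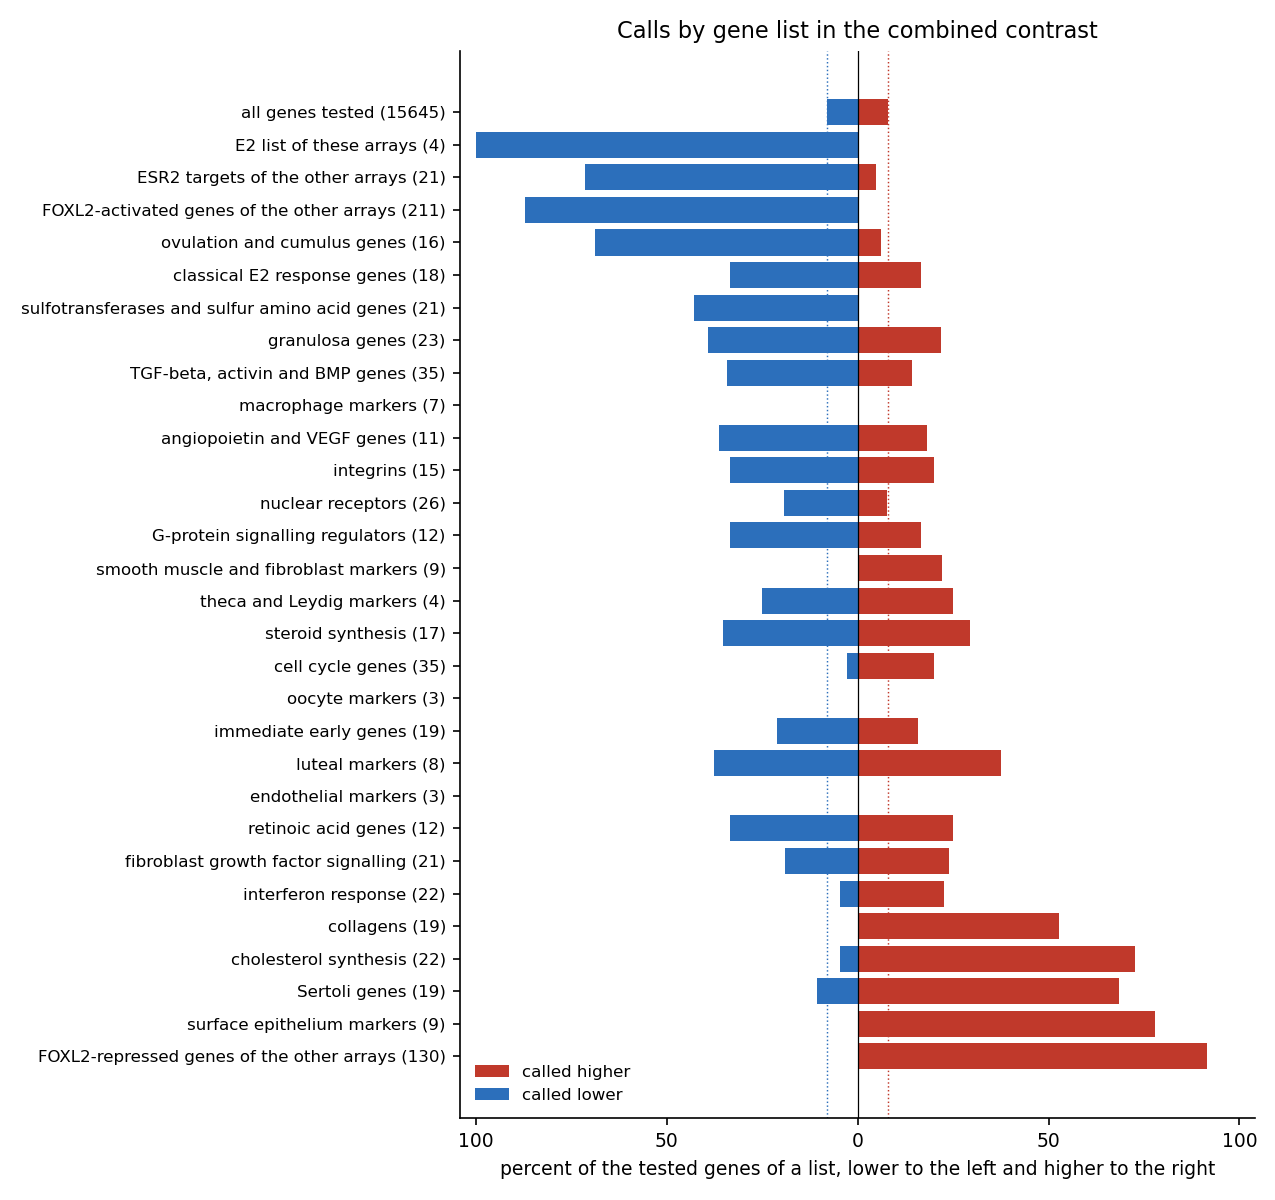
Percent of the tested genes of each list that were called lower (blue, to the left) or higher (red, to the right) in the combined contrast, with the number of tested genes in brackets and lists ordered by median change. Dotted lines mark all genes, 8.07% lower and 8.03% higher; the lists of FOXL2-activated genes (184 of 211 lower) and FOXL2-repressed genes (119 of 130 higher) lie at the extremes among the long lists.

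Stretches upstream of transcript starts were searched for short motifs, because groups of genes had moved together. RefSeq promoter sequences of the GRCm38.p6 assembly matched 11594 of the tested genes, and only the 250 bases before the start were read. The core forkhead motif GTAAACA, on either strand, lay in 2.63% of all genes, in 3.8% of 948 genes that fell and in 1.98% of 911 that rose. For the FOXL2-activated and FOXL2-repressed lists it was 3 of 162 and 3 of 98. The palindromic estrogen response element GGTCANNNTGACC lay in 2 of all these genes and in 0 of those that fell or rose. These are matches of letters, not sites of binding, and no match says only that the letters are not in this window.

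The windows printed here are those with the motif among the genes that fell most (Tmsb15l, which shares its start with the copy Tmsb15b1, and Peli2, -1.80) and rose most (Col6a1, Ak7 with 1.41 and Aldoc with 0.92) in the fits with and without the block. They lie at chrX:136976970-136977056 (− strand), chr14:48120712-48120798 (+), chr10:76726209-76726294 (−), chr12:105705811-105705897 (+) and chr11:78324010-78324096 (+), all upstream of the start, and read 5′ to 3′ on the strand of the gene. Capitals mark the forkhead motif or its reverse complement.
Tmsb15l: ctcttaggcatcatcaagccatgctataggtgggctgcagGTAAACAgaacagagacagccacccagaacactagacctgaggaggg
Peli2: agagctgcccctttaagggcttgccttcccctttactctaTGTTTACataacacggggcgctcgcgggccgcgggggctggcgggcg
Col6a1: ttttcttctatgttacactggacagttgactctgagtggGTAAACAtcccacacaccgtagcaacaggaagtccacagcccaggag
Ak7: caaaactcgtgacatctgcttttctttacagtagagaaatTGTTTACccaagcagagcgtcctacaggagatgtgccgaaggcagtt
Aldoc: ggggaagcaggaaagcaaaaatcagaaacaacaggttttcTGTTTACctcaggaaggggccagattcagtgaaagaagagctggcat

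Among 26 nuclear receptors tested, 5 fell (19.2%, against 8.07% of all genes) and 2 rose (7.69%, against 8.03%). The share that rose was thus near that of all genes. The estrogen receptor Esr2 was 3867 and 3231 in the control and 2728 and 2177 after the combined treatment, with a log2 change of -0.54 ± 0.10 (SE), adjusted p = 0.00416, and it was not called without the block (adjusted p = 0.0665). Esr1 was dim, at 16.4 and 16.7, then 17.2 and 18.2, a change of 0.10 ± 0.32 (SE) that did not pass (adjusted p = 0.884). Pparg (a lipid-sensing receptor) was 7942 and 7887 in the control and 2827 and 1826 after the combined treatment, the largest change of the list at -1.80 ± 0.12 (SE), adjusted p = 2.66e-06, and the only one called in both fits. Nr1d1, a clock repressor, fell by 1.00, the retinoid receptors Rxra and Rarg by 0.56 and 0.45, while the glucocorticoid receptor Nr3c1 rose by 0.42 and the vitamin D receptor Vdr by 0.54. Other receptors that did not pass had changes of -0.23 for Nr5a1, 0.02 for Nr2c1 and 0.04 for Nr2c2. For these receptors, rises ranged from 0 to 2 (0 without control replicate 2 or combined-treatment replicate 2, and moved by over 1.5 times also without control replicate 1, E2-alone replicate 1 or 2 or combined-treatment replicate 1) and falls ranged from 2 to 5 (2 without combined-treatment replicate 2, and moved by over 1.5 times also without control replicate 1 or 2) with an array left out. Nr1d1, Rxra, Rarg, Nr3c1 and Vdr were not called without the block (adjusted p from 0.0763 to 0.125).

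Steroid enzymes moved in both directions, 6 lower and 5 higher of 17 tested (median -0.01). Cyp11a1 (the side-chain cleavage enzyme that turns cholesterol into pregnenolone) was 18725 and 20145 in the control and 33234 and 32360 after the combined treatment, with a log2 change of 0.76 ± 0.08 (SE), adjusted p = 4.8e-05. Star, which brings cholesterol to that enzyme, rose by 0.46, Fdxr, part of its electron supply, by 0.43, Cyp17a1, which makes androgens, by 0.73, and Hsd17b7, which serves estrogen and cholesterol synthesis, by 0.77. The next enzymes were lower: Hsd3b1 fell by 0.74 and Hsd3b6 by 0.87, both making progesterone from pregnenolone. Hsd17b1 (which turns estrone into E2) was 2062 and 1743 in the control and 890.0 and 544 after the combined treatment, with a log2 change of -1.45 ± 0.11 (SE), adjusted p = 6.66e-06. Akr1c14 and Akr1c18, which inactivate steroids, fell by 1.20 and 0.98. Luteal markers, which share Cyp11a1, Star, Hsd3b1 and Akr1c18 with this list, gave 3 rises and 3 falls of 8, the others being Parm1 (0.42) and the prolactin receptor Prlr (-0.36). For the steroid enzymes, rises ranged from 3 to 5 (3 without combined-treatment replicate 2) with an array left out. For the luteal markers, rises ranged from 1 to 3 (1 without combined-treatment replicate 2) and falls ranged from 1 to 3 (1 without control replicate 1) with an array left out. Star, Fdxr, Cyp17a1, Hsd17b7, Hsd3b6, Akr1c18, Parm1 and Prlr were not called without the block (adjusted p from 0.0529 to 0.645).

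Enzymes of cholesterol synthesis rose together. Of 22 tested, 16 rose and 1 fell, with a median of 0.51 against -0.03 over all genes, and 6 rose without the block. Hmgcs1 (HMG-CoA synthase, at the head of the mevalonate pathway) was 5712 and 5029 in the control and 10808 and 14124 after the combined treatment, with a log2 change of 1.21 ± 0.11 (SE), adjusted p = 2.34e-05. Fdft1, squalene synthase, went from 2287 and 2537 to 4267 and 5573 (1.02), Idi1 from 2286 and 1813 to 3545 and 4029 (0.89) and Lss, lanosterol synthase, from 761 and 938 to 1234 and 1705 (0.78). Sc5d, near the end of the pathway, was the one that fell (-0.37). The 2 replicates after the combined treatment lay above both controls for each of the 4 named enzymes that rose. Over all genes tested, the groups did not overlap, in either direction, for 7116 of 15645. The sterol regulatory motif TCACNCCAC, on either strand, lay in 1.22% of the upstream stretches of all genes with a promoter and in 1 of 16 of these enzymes, Hmgcs1, at chr13:119690174-119690262 (+ strand), and its window is shown with the motif in capitals. For these enzymes, rises ranged from 10 to 17 (10 without control replicate 2 or combined-treatment replicate 2) and falls ranged from 0 to 1 (0 without control replicate 1 or combined-treatment replicate 1) with an array left out. Lss and Sc5d were not called without the block (adjusted p from 0.0629 to 0.174).
Hmgcs1: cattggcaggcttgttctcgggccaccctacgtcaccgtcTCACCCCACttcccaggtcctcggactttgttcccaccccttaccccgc

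Sertoli genes mostly rose, and granulosa genes went both ways. Of 19 Sertoli genes tested, 13 rose (68.4%, against 8.03% of all genes) and 2 fell (10.5%, against 8.07%), with a median of 0.65. Without the block 8 rose. Amh, Nr0b1 and Sox10, of the 22 genes listed, were well above background on none of the 4 arrays. Sox9 (the transcription factor that sets the Sertoli fate) was 50.8 and 58.9 in the control and 210.4 and 311 after the combined treatment, 4.68-fold higher with a log2 change of 2.23 ± 0.14 (SE), adjusted p = 1.99e-06. Its relative Sox8 went from 40.9 and 38.7 to 166 and 136 (1.92), Dhh, a hedgehog ligand of Sertoli cells, from 2127 and 2202 to 4062 and 5131 (1.08), and Wt1, which both cell types express, from 8145 and 7096 to 15001 and 15644 (1.01). The study describes Sox9 and Sox8 as lowered by E2, and with control siRNA the arrays labelled E2 lay above those labelled vehicle by 0.79 for Sox9 and 0.70 for Sox8. Dmrt1, a factor of the male gonad, fell by 0.75 and Vnn1 by 0.30. In the Sertoli list, falls ranged from 0 to 2 (0 without control replicate 1 or combined-treatment replicate 2, and moved by over 1.5 times also without combined-treatment replicate 1 or control replicate 2) with an array left out. Dmrt1 and Vnn1 were not called without the block (adjusted p from 0.0921 to 0.101).

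Of 23 granulosa genes tested, 9 fell and 5 rose (median -0.23). Beside Fst, Hsd17b1, Hsd11b2 and Esr2, the falls included Gja1, the connexin that couples granulosa cells (1194 and 1257, then 525 and 280.0, -1.68), and Serpine2, a protease inhibitor (3678 and 5297, then 1952 and 1894, -1.20). The rises were Rspo1, Inhbb, a subunit of activin B and inhibin B (0.94), Gatm, an enzyme of creatine synthesis (1.12), Ccnd2, the cyclin of proliferating granulosa cells (0.85), and Amhr2, the receptor of anti-Müllerian hormone (0.41). Gja1 and Serpine2 were chosen for the text after their values were seen. Inhbb and Amhr2 were not called without the block (adjusted p from 0.0688 to 0.243).

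Markers of the ovarian surface epithelium, cells that may accompany follicles in culture, rose as well. Of 9 tested, 7 rose and the other 2, Krt7 and Krt19, did not pass, with 0.55 (adjusted p = 0.325) and 0.90 (adjusted p = 0.0566). The median was 0.90, and 6 rose without the block. Msln (mesothelin) was 331 and 328 in the control and 1113 and 1529 after the combined treatment, with a log2 change of 1.99 ± 0.12 (SE), adjusted p = 1.44e-06. Muc16 (the CA-125 mucin) was 248 and 128 in the control and 901 and 692 after the combined treatment, with a log2 change of 2.15 ± 0.14 (SE), adjusted p = 2.66e-06. The uroplakins Upk3b and Upk1b went from 197 and 143 to 595 and 427 and from 83.1 and 54.4 to 231 and 188. The summed signal of the 12 markers was 20826 and 18556 in the control and 27688 and 29160 after the combined treatment, against 21350 and 20933 with control siRNA and E2 and 30648 and 29895 with FOXL2 siRNA alone. Cdh1 was the 1 marker well above background on none of the 4 arrays. Their part in the other results was not tested, and Msln, Muc16 and Upk3b also stand on the FOXL2-repressed list and Krt18 on that of Sertoli genes. For the surface epithelium markers, rises ranged from 4 to 7 (4 without control replicate 2 or combined-treatment replicate 2) with an array left out.

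Of 35 genes of TGF-beta, activin and BMP signalling, 12 fell and 5 rose (median -0.18). The secreted antagonists Fst and Grem1 fell, Grem1 from 9411 and 4377 to 4101 and 1281 (-1.49, adjusted p = 4.63e-05 with the block and 0.254 without). Among ligands, Bmp2 went from 487 and 386 to 206 and 61.8 (-1.94, adjusted p = 0.00059), whereas Tgfb2 rose from 316 and 359.8 to 775 and 840.4 (1.26, adjusted p = 2.61e-05), and Bmp4 rose by 0.89 and Inhbb by 0.94. The BMP receptors Bmpr1b, Bmpr2 and Bmpr1a fell by 1.36, 0.71 and 0.52. Id3 (a direct target of BMP signals) was 20403 and 18665 in the control and 11742 and 10341 after the combined treatment, with a log2 change of -0.82 ± 0.08 (SE), adjusted p = 3.89e-05. The intracellular inhibitor Smad7 rose by 0.35, and Smad6, its relative, fell by 0.33. Grem1, Bmp2 and the receptors were chosen for the text after their values were seen. For these signalling genes, rises ranged from 3 to 5 (3 without combined-treatment replicate 1 or 2 or control replicate 2) with an array left out. Bmp2, Bmp4, Bmpr1b, Bmpr1a, Smad7 and Smad6 were not called without the block (adjusted p from 0.0703 to 0.414).

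Genes of ovulation and cumulus expansion mostly fell. Of 16 tested, 11 fell and 1 rose (median -0.75), and without the block 5 fell. Beside Ereg and Rgs2, Ptgs2, the inducible cyclooxygenase that makes prostaglandins at ovulation, was 1062 and 1661 in the control and 436 and 834 after the combined treatment (-1.14 ± 0.10 SE, adjusted p = 1.79e-05, 0.159 without the block). Has2, which makes the hyaluronan of the cumulus matrix, went from 139 and 134 to 76.7 and 48.2 (-1.17), a gene chosen after its value was seen. The one that rose was Adamts1, a protease that cuts the matrix at ovulation. Adamts1 was 1204 and 1191 in the control and 2845 and 3157 after the combined treatment, with a log2 change of 1.32 ± 0.08 (SE), adjusted p = 1.86e-06.

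Of 19 collagen genes tested, 10 rose and 0 fell (1 at an unadjusted p under 0.05, 0 without the block), with a median of 0.44. Col10a1 and Col27a1, which both fell, were not on the list, so the count of falls holds for the listed genes only. Col27a1 was named after its value was seen. Col6a1 was 394 and 342 in the control and 1767 and 1269 after the combined treatment, with a log2 change of 2.03 ± 0.12 (SE), adjusted p = 1.44e-06. Col4a6, of basement membranes, went from 1686 and 1461 to 3107 and 3232 (1.01) and the fibrillar Col3a1 from 1042 and 995 to 1789 and 1889 (0.85). Col1a1 rose by 1.07. Of 15 integrins, 5 fell (33.33%, against 8.07% of all genes), which were Itga2, Itgb3 (-1.08), Itga9 (-1.06), Itga11 (-0.80) and Itgb5 (-0.76). The 3 that rose (20%, against 8.03%) were the laminin-binding Itga7 (1.21), Itga6 (0.67) and Itga3 (0.45). On the collagen list, falls ranged from 0 to 1 (1 without control replicate 1) with an array left out. Col1a1 and Itga9 were not called without the block (adjusted p from 0.181 to 0.296).

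Regulators of G-protein signals split, with 4 falls and 2 rises of 12: Rgs2, Rgs4, Rasd1 (-1.45) and Rgs10 (-0.40) fell, and Rgs16 and Rgs3 (1.14) rose. In fibroblast growth factor signalling, 5 of 21 rose (23.81%, against 8.03% of all genes) and 4 fell (19.05%, against 8.07%). Fgf18 was 714 and 674 in the control and 2158 and 2261 after the combined treatment, with a log2 change of 1.67 ± 0.10 (SE), adjusted p = 1.44e-06. Receptor Fgfr3 rose by 1.12, Fgf9 by 0.44 and the feedback inhibitor Spry1 by 1.45, and Fgf1, well above background on 1 control array, was also called higher. The feedback inhibitor Il17rd fell by 0.91, Fgfr2 by 0.61, the decoy receptor Fgfrl1 by 0.42 and the target Etv4 by 0.38. For vessel growth factors the counts were 4 lower (Angpt2, Angpt1, Vegfd and Nrp2) and 2 higher (Vegfa and Nrp1) of 11. Angpt1, the agonist of the receptor that Angpt2 antagonises, fell by 0.87, Vegfd by 0.85 and the co-receptor Nrp2 by 0.51, and Vegfa rose by 0.55 and Nrp1 by 1.12. For the G-protein regulators, falls ranged from 2 to 4 (2 without control replicate 2) with an array left out. For fibroblast growth factor signalling, rises ranged from 3 to 5 (3 without combined-treatment replicate 1) and falls ranged from 1 to 4 (1 without combined-treatment replicate 2, and moved by over 1.5 times also without combined-treatment replicate 1 or control replicate 2) with an array left out. Rasd1, Rgs10, Fgf9, Spry1, Fgf1, Fgfr2, Fgfrl1, Etv4, Angpt1, Vegfd, Nrp2 and Vegfa were not called without the block (adjusted p from 0.0567 to 0.459).

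Immediate early genes, which respond within minutes to growth signals, gave 4 falls and 3 rises of 19. These were 21.05% and 15.79%, against 8.07% and 8.03% of all genes. Fos was 212 and 223 in the control and 86.5 and 71.7 after the combined treatment, with a log2 change of -1.47 ± 0.15 (SE), adjusted p = 4.86e-05. Egr1 fell by 0.81 and Klf2 by 0.49, Egr2 (well above background on 1 treated array) was also called lower, and Klf4, Btg2 and Jun rose by 0.84, 0.52 and 0.49. Of 35 cell cycle genes, 7 rose and 1 fell, Foxm1 (-0.51), with a median of -0.01. The rises included both drivers, the D cyclins Ccnd1 (1.44) and Ccnd2, and inhibitors, Cdkn2b (1.03), Gadd45g (1.37) and Gadd45b (0.94). Retinoic acid genes moved both ways, with 3 rises (Stra6 1.10, Aldh1a2 0.78 and Aldh1a1 0.46) and 4 falls (Rdh10 -1.01, Dhrs3 -0.95, Crabp2 -0.76 and Rarg) of 12, which were 25% and 33.33%. Of these genes, 0 were called by limma without the block, where 6 had an unadjusted p under 0.05. Interferon response genes gave 5 rises (22.73%), Ifit2 (0.93) being the largest, and 1 fall (4.545%), Cmpk2 (-0.47), of 22. Of them, 0 were called by limma without the block, where 1 had an unadjusted p under 0.05. The interferon genes that rose otherwise were Oas2, Ifit3, Ifit1 and Rsad2, by 0.57, 0.43, 0.40 and 0.33. For smooth muscle and fibroblast markers, 2 of 9 rose, Des (1.17) and Dcn (0.36). For the retinoic acid genes, rises ranged from 1 to 4 (1 without combined-treatment replicate 1 or 2 or control replicate 2) and falls ranged from 2 to 4 (2 without control replicate 2) with an array left out. For the interferon genes, rises ranged from 2 to 9 (2 without control replicate 2 or combined-treatment replicate 2, 9 without control replicate 1, and moved by over 1.5 times also without combined-treatment replicate 1) and falls ranged from 0 to 1 (0 without control replicate 1 or combined-treatment replicate 2) with an array left out. For the cell cycle genes, falls ranged from 0 to 1 (0 without combined-treatment replicate 2) with an array left out. For the smooth muscle and fibroblast markers, rises ranged from 0 to 2 (0 without control replicate 1 or 2 or combined-treatment replicate 1, and moved by over 1.5 times also without FOXL2-siRNA-alone replicate 1 or 2 or combined-treatment replicate 2) with an array left out. Egr1, Klf2, Egr2, Btg2, Jun, Foxm1, Ccnd1, Stra6, Aldh1a2, Aldh1a1, Rdh10, Dhrs3, Crabp2, Ifit2, Cmpk2, Oas2, Ifit3, Ifit1, Rsad2, Des and Dcn were not called without the block (adjusted p from 0.0535 to 0.768).

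Because E2 was present in 1 of the 2 groups, genes tied to estrogen were followed through all 4 groups, where E2 alone means control siRNA with E2 and FOXL2 siRNA alone means FOXL2 siRNA with vehicle. The study's table of genes dependent on ESR2, from its other arrays, holds 21 genes, with Esr2 itself, the gene knocked down there, among them. Of these, 15 fell in the combined contrast, 9 without the block, and Pmp22, a myelin protein, rose (0.77). Their median change was -1.31 in this contrast, -2.23 for FOXL2 siRNA against control siRNA with vehicle, -0.89 for E2 against vehicle with control siRNA, and -0.02 for FOXL2 siRNA with E2 against control siRNA with E2. For E2 against vehicle with FOXL2 siRNA the median was 0.60. These comparisons share arrays, so their values are given side by side and not tested against each other in pairs. Of the 21, 5 fell and 6 rose for FOXL2 siRNA with E2 against control siRNA with E2. The study describes ESR2 targets, and most genes that respond to E2, as activated. The lower median with E2 in control siRNA cells runs against this and rests on the labels of the control siRNA groups. If those labels were exchanged, its sign would turn, and the medians of -1.31 and -0.02 would change places. On the ESR2 list, rises ranged from 1 to 2 (2 without E2-alone replicate 1 or 2) with an array left out. Pmp22 was not called without the block (adjusted p = 0.324).

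Cdo1 was 457 and 595 in the control, 228 and 362 with E2 alone, 47.1 and 102 with FOXL2 siRNA alone, and 81.9 and 105 with both. It was lowest with FOXL2 siRNA, whether E2 was given or not (-2.49 ± 0.17 SE in the combined contrast). Spink13 was 228 and 299 in the control, 71.0 and 99.1 with E2 alone, 27.4 and 26.6 with FOXL2 siRNA alone, and 78.7 and 71.1 with both. For this protease inhibitor the combined treatment lay at the level of E2 alone and above that of FOXL2 siRNA alone (-1.80 ± 0.19 SE, adjusted p = 4.75e-05). Car14 was 442 and 312 in the control, 139.5 and 65.1 with E2 alone, 72.0 and 26.8 with FOXL2 siRNA alone, and 150.1 and 65.6 with both. This membrane carbonic anhydrase had a log2 change of -1.91 ± 0.20 (SE), adjusted p = 4.27e-05, and was not called without the block (adjusted p = 0.129). Lratd1 fell by 1.76 (adjusted p = 1.47e-05).

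All 4 genes of a short E2 list fell, which the study's text names out of a longer list from these same arrays and which is therefore no independent evidence: Hsd11b2, Angpt2, Cbs and Tacc1. Cbs was 643 and 686 in the control, 132 and 180.2 with E2 alone, 107 and 105 with FOXL2 siRNA alone, and 287 and 239 with both. This enzyme joins homocysteine and serine in the path to cysteine, and its combined change was -1.34 ± 0.15 (SE, adjusted p = 8.32e-05). Angpt2 was 202 and 184 in the control, 91.9 and 72.4 with E2 alone, 12.8 and 14.7 with FOXL2 siRNA alone, and 87.3 and 31.5 with both. Its combined change was -1.88 ± 0.32 (SE, adjusted p = 0.00141, 0.0497 without the block). Tacc1 was 956 and 1151 in the control, 492 and 541 with E2 alone, 353 and 270.4 with FOXL2 siRNA alone, and 544 and 377 with both, a combined change of -1.21 for this centrosome protein. In these 3 genes the control siRNA group with vehicle was the highest of the 4 groups on both arrays.

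**Figure D4:**
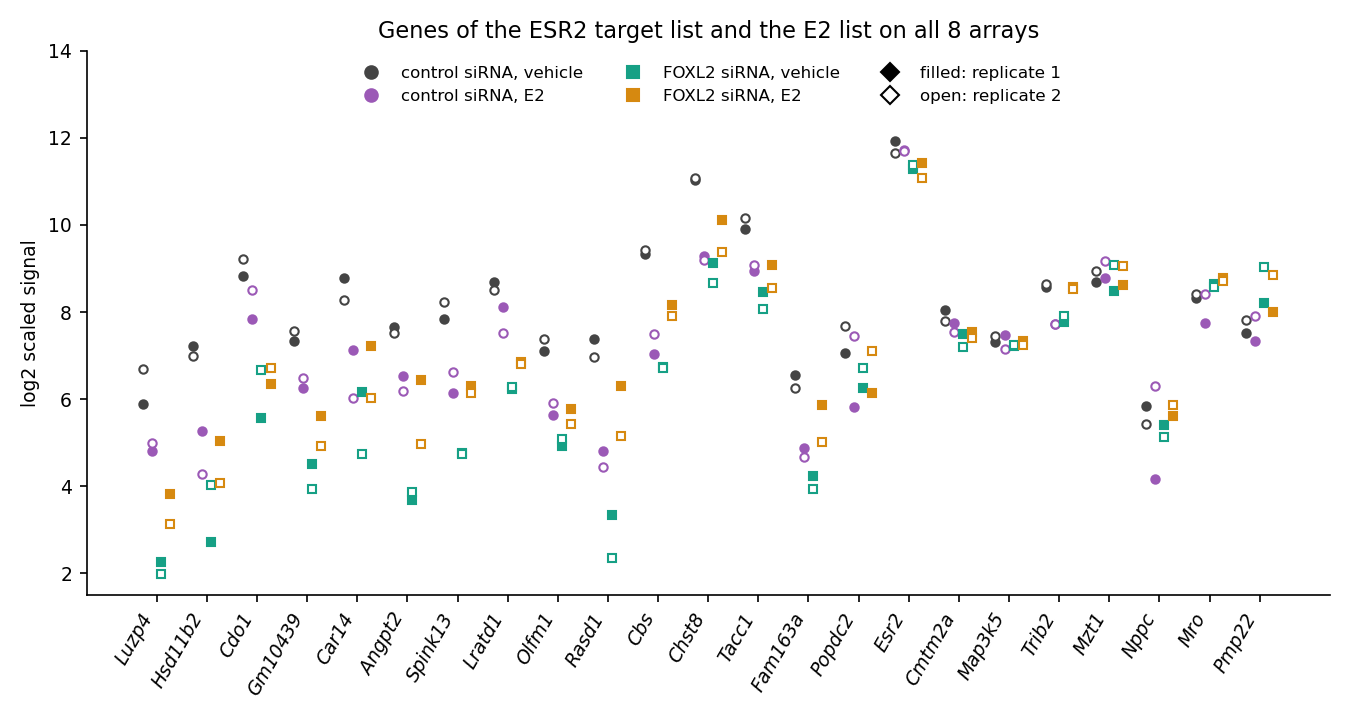
Log2 scaled signal (vertical axis) of the 21 genes of the ESR2 target list and the 4 of the E2 list, which share Hsd11b2 and Cbs, on all 8 arrays; genes run from the largest fall to the largest rise in the combined contrast, and symbols mark the group and, by fill, the replicate. For most genes on the left side control siRNA with vehicle is highest and FOXL2 siRNA with vehicle lowest, with combined changes down to -2.81 for Luzp4, which was well above background on 1 of the 2 arrays with the combined treatment.

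Of 21 genes of sulfotransferases and sulfur amino acids, 9 fell and 0 rose (1 at an unadjusted p under 0.05, 0 without the block; median -0.31, 4 falls without the block). Beside Cdo1 and Cbs, Chst8, a sulfotransferase that acts on hormone glycans, fell by 1.31 (adjusted p = 9.84e-05), and Ndst4, a heparan sulfate enzyme, went from 189.7 and 197 to 82.1 and 91.6 (-1.16). Genes known to respond to E2 in other tissues were mixed, with 6 falls and 3 rises of 18. Cited1 (a transcriptional coregulator) was 874 and 836 in the control and 279 and 206 after the combined treatment, with a log2 change of -1.83 ± 0.11 (SE), adjusted p = 1.44e-06. The receptor corepressor Nrip1 fell by 0.69. Rises were Cxcl12, a chemokine (1.56), Ccnd1 and Tff1, which was not well above background in the control. For the sulfur genes, falls ranged from 5 to 9 (5 without control replicate 2) with an array left out. For the genes that respond to E2 elsewhere, falls ranged from 3 to 8 (3 without combined-treatment replicate 2) with an array left out. Cxcl12 was not called without the block (adjusted p = 0.519).

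The combined treatment was then compared with each single one. Against E2 alone, 1175 genes were higher (7.51%) and 1154 lower (7.38%), 686 in all without the block. Genes with the smallest adjusted p there were Cryab (1.96), Robo4 (2.14) and Slitrk4 (1.74) among the higher and Cited1 (-2.38), Spin2c (-2.02) and Nrep (-2.30) among the lower. Slitrk4 was 1478 and 1489 with control siRNA and E2 and 4862 and 5070 with both treatments. Of the FOXL2-activated list, 163 fell and 3 rose in this comparison, and of the FOXL2-repressed list 112 rose. The median of the cholesterol enzymes was 0.51. If the labels of the control siRNA groups were exchanged, this comparison would be the combined one.

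Against FOXL2 siRNA alone, the step of adding E2 gave few calls. 72 genes were higher (0.46%) and 24 lower (0.153%), and 2 in all without the block, where 478 had an unadjusted p under 0.05. Cacna1a was 308 and 246 in the control, 89.2 and 103 with E2 alone, 108 and 109 with FOXL2 siRNA alone, and 399 and 355 with both. This calcium channel gene was the one that the naming rule gave here, higher by 1.80 ± 0.14 (SE, adjusted p = 0.000124). 7 of the 21 ESR2 targets and 2 of the 4 genes of the E2 list were higher with E2 in FOXL2 siRNA cells, among them Spink13 (1.47, adjusted p = 0.00346), Cbs (1.31, adjusted p = 0.00157) and Angpt2, which was not well above background without E2 (adjusted p = 0.0174). Slc13a5 was lower by 0.67 (adjusted p = 0.043). Sox9, Fst and Mybpc3 did not pass in this step, with -0.43 ± 0.14, -0.10 ± 0.14 and -0.34 ± 0.11 (SE).

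A further test asked whether the combined change equalled the sum, on the log2 scale, of the changes from each single treatment. It departed upwards from the sum for 229 genes (1.46%) and downwards for 103 (0.658%), 38 in all without the block. 199 of these genes were also called in the combined contrast. Hs3st6 was 409.9 and 628 in the control, 65.9 and 85.5 with E2 alone, 55.7 and 64.9 with FOXL2 siRNA alone, and 266 and 285 with both. This heparan sulfate sulfotransferase was low with either treatment alone and higher with both, a departure of 4.95 ± 0.20 (SE, adjusted p = 3.92e-07). Tmem86a, a lysoplasmalogenase, had the same order, 53759 and 43789, 22727 and 18215, 21874 and 15773 and 43078 and 33235, with a departure of 2.28, and Cacna1a one of 3.32. Plekhg4 was 142 and 144 in the control, 255 and 277 with E2 alone, 676 and 593 with FOXL2 siRNA alone, and 351 and 358 with both, a departure of -1.74 ± 0.16 (SE, adjusted p = 0.000101).

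The departures rest on the labels of the control siRNA groups, whose exchange turns the sign of their difference. With those labels exchanged, an alternative added after the values were seen, 1 gene departed upwards (0.00639%), Gm11559, and 7 downwards (0.0447%), and 0 passed in limma without the block, where 360 had an unadjusted p under 0.05. Hs3st6 then had a departure of -0.56, Tmem86a of -0.23, Cacna1a of 0.27 and Plekhg4 of 0.06, none of which passed (adjusted p from 0.703 to 0.978).

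Of the genes with the largest combined changes, the departure under the labels as deposited passed for Slc13a5 (-1.49), Acer1 (-1.73), Sox9 (-1.22) and Mybpc3 (-0.97), where the combined rise was smaller than the sum, and for Hsd11b2 (3.52, well above background on 1 of the 2 arrays with FOXL2 siRNA alone) and Cdo1 (1.28), where the combined fall was. 13 of the 21 ESR2 targets and all 4 genes of the E2 list departed upwards under those labels, against 1.46% of all genes. The study took its E2 list from the difference between the control siRNA groups on these same arrays. That difference also enters the departure with its sign turned, so the 4 genes are no independent test of it. Rasd1, a small G protein, picked after its values were seen, was 167 and 126, 27.9 and 21.9, 10.1 and 5.14 (not well above background) and 78.8 and 35.5 in the same order of groups. With the control labels exchanged, 0 of the 21 and 0 of the 4 passed the limma test in either direction (4 and 1 had an unadjusted p under 0.05), and the departures were -1.15 for Hsd11b2, -0.80 for Cbs, -0.47 for Tacc1 and 0.69 for Angpt2. Of the others, Slc13a5 then had 0.15, Acer1 0.49, Sox9 0.35, Mybpc3 0.29, Cdo1 -0.44 and Rasd1 0.33 (adjusted p from 0.572 to 0.932 over all 10).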

How the data were processed

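RNA of 4 groups of follicular cells, 2 arrays each, had been labelled with Cy3 from 50 ng and hybridised to 1-colour Agilent mouse arrays. The deposited scanner files, made by the authors with Agilent Feature Extraction, give for each spot a processed intensity, which is background-subtracted and spatially detrended, beside raw median intensities. A second deposited table holds the authors' log2 values from GeneSpring, which had been set to each array's 75th percentile, and served as an alternative. Groups came from the sample titles, and the number of value columns left unused was 0. The replicates are independent pools of 5 mice, per the study's design text.

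Control spots (3671 of 62976) and 39 flagged probes were left out, spots of a probe were averaged, and the mean intensity over a gene's probes was scaled so that all arrays had the same 75th percentile (275.2 to 367.5 before scaling). Genes with a median signal of at least 10 entered the test (15645 of 24235). The log2 values were fitted with limma 3.58.1 in R 4.3.3, with 4 group means, the replicate number as a block and an intensity trend in eBayes (residual degrees of freedom 3, prior 8.59), two-sided, with Benjamini-Hochberg adjustment over all genes tested and a threshold of 0.05. Every adjusted p given here comes from limma. Further tests in the same fit took the combined treatment against each single treatment and against the sum of both. The samples were paired by replicate number. The deviations from the group means of same-numbered arrays correlated between 0.33 and 0.45 for all 6 pairs of groups. This correlation is across genes, and whether it reflects the mouse pools or the places on the slide was not tested. The scripts were tested on simulated data: of 100 genes changed by 1 and 100 changed by 2 on the log2 scale, 76 and 96 were called, with 6 false calls. Only 200 of 15645 genes were changed there, with independent normal noise and an additive replicate effect. The simulated counts therefore need not carry over to the data.

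A gene was taken as measured in a group where Feature Extraction marked its probes as well above background. Named genes were Foxl2, members of the nuclear receptor and E2 lists, the 15 largest rises and falls called with and without the block, well above background on all 4 arrays and not overlapping between groups, up to 5 each way with the largest lower bound on the fold, up to 4 of each list by adjusted p, and up to 3 each way for the other tests. Some genes that this rule names are not reported here. The contrast, the 29 gene lists and the tests were chosen with earlier results of these data known. Alternatives were quantile normalization, normexp with an offset of 50 on median signals, the authors' values, other filters, the brightest probe, no trend, no block, the 4 arrays compared alone, the study's rule on fold and spread, and each array left out. The exchange of the control siRNA labels in the test against the sum was added after the data were seen.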

Additional observations from a re-analysis of the deposited data

Results flagged for a closer look

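The departure of the combined change from the sum of the single changes passed the limma test for 332 genes. Those named in the report were Hs3st6 with a departure of 4.95, Cacna1a with 3.32, Tmem86a with 2.28 and Plekhg4 with -1.74 on the log2 scale. In each case the test of the interaction drew attention to the gene, under the labels as deposited. With the labels of both control siRNA groups exchanged, an alternative chosen after seeing the data, 8 genes passed, and the departures of these 4 were -0.56, 0.27, -0.23 and 0.06, none of which passed (adjusted p from 0.703 to 0.978).

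Probes that carry only a genomic interval as a name, and no gene, were outside the gene-level test. Fitted with all probes, 288 of 6825 such probes passed in the combined contrast, 132 of them higher (1.93%, against 4.49% of all 31520 probes in the same fit) and 156 lower (2.29%, against 4.61%), and 27 were higher and 38 lower without the block. Such a probe for mm9 chr5:34696192-34722842, strand R in the file's notation, read 1098 and 785 in the control and 9337 and 8854 after the combined treatment, a log2 change of 3.29. Another, for chr16:8738782-8830148 on strand R, read 1426 and 1724 in the control and 7594 and 8114 after it, a change of 2.32. In the other direction, the probe for chr3:95502970-95503399 on strand R went from 5102 and 4700 to 1475 and 1299, a change of -1.82, and that for chr4:128727332-128735227 on strand F from 343 and 223.6 to 68.7 and 45.6, a change of -2.31. The groups overlapped for none of these 4 probes. They were picked by size of change among interval probes called in both fits and well above background on all 4 arrays. Some interval probes are not reported here. At the gene level, the groups did not overlap for 7116 of the 15645 genes tested.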

How the results depend on the processing

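The combined contrast called 2519 genes. The count was 758 without pairing by the replicate block, 1648 with no filter on low values, 1453 with no intensity trend and 357 under the study's rule on fold and spread. Leaving out each array gave 1320 to 2510, the lowest being those without FOXL2 siRNA with E2 replicate 2 (1320) and without control siRNA with vehicle replicate 2 (1361); a group's lone array was then taken to vary like the others. The knockdown step with E2 called 2329 genes, 1503 without the filter, 1330 without the trend, 686 without the block and 1246 to 2477 with an array left out (1246 without FOXL2 siRNA with E2 replicate 2, 1341 and 1398 without control siRNA with E2 replicate 2 or 1). The E2 step called 96, of which 75% were higher, 19 without the filter (73.7%), 4 without the trend (100%), 2 without the block (100%), 161 with the 4 arrays of that step alone (62.1%) and 42 to 116 with an array left out (42 without FOXL2 siRNA with vehicle replicate 1, 61 without FOXL2 siRNA with E2 replicate 1). The departure test called 332 (69% higher), 91 without the filter (85.7%), 78 without the trend (93.6%), 38 without the block (97.4%) and 158 to 321 with an array left out (158 and 196 without control siRNA with E2 replicate 1 or 2, 191 and 220 without FOXL2 siRNA with vehicle replicate 1 or 2). It called 8 (12.5% higher) with the labels of control siRNA with vehicle and control siRNA with E2 exchanged, an alternative chosen after seeing the data. The cause of the other shifts was not tested.

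The sign changed only for genes of the text that did not pass. Esr1 was -0.035 and Inha -0.047 under normexp, and Nr2c2 was -0.033 with the brightest probe. With an array left out, Inha ranged from -0.017 to 0.026, Nr2c1 from -0.009 to 0.046 and Nr2c2 from -0.078 to 0.152. Of 177 genes named, the calls of 73 were lost without the block, 22 without the filter, 32 without the trend, and at most 34 with any array left out; the other settings lost 11 or fewer. With 2 arrays per group and 1 slide, small changes of dim genes cannot be resolved.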
